A study of Mus musculus with 8 samples.

Results

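The 10 genes described here are mouse genes that rise with low oxygen: the oxygen sensors Egln1 and Egln3, the mitochondrial genes Bnip3 and Pdk1, the collagen hydroxylase genes P4ha1 and P4ha2, the secreted factors Adm and Vegfa, and Ndrg1 and Ankrd37. They were taken by name, with earlier results of these data known, and every probe set annotated to 1 of these symbols alone was used. Shares set beside those of all probe sets or genes are therefore descriptions, not independent tests. That gave 22 of 45037 probe sets for 10 of 18193 annotated genes: 5 for Ndrg1, 4 for Pdk1, 2 each for Egln1, Egln3, Adm, P4ha1 and Vegfa, and 1 each for Bnip3, Ankrd37 and P4ha2. Affymetrix arrays measured RNA of mouse embryonic stem cells cultured on feeder cells, in 4 groups of 2 arrays. J1 cells, of strain 129S4/SvJae, received control shRNA or Rif1 shRNA, a hairpin RNA that lowers Rif1, by lipofection and were collected after 48 h. F1 cells, of background C57BL/6xC3H, carried control shRNA or a stable Rif1 shRNA and were collected at passage 16. The labels do not say whether these lines are single clones or whether the 2 arrays of a group came from separate cultures, so p-values cover the spread between these arrays, which may be technical. The cell line label of the F1 controls also names the knockdown line.

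Hypoxia-inducible factor (HIF) is a transcription factor whose alpha subunits are hydroxylated on proline by the Egln enzymes when oxygen is present, then bound by Vhl and degraded. In low oxygen the alpha subunit persists, pairs with Arnt and binds DNA at the letters ACGTG or GCGTG. Egln1 and Egln3 are themselves HIF targets, which makes them a negative feedback. Embryonic stem cells are cultured lines derived from the early embryo, and several HIF targets turn metabolism towards glycolysis.

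Promoter sequence from RefSeq (build GRCm38.p6), running from 250 bases before to 50 after a transcript start, was held for 9 of the 10 genes in 11 windows. A match to ACGTG or GCGTG on either strand was found in 9 of the 11 windows, against 43.8% of all 32851 windows. Each of the 9 genes had a match in at least 1 window. For Vegfa, both matches lay in the window at chr17:46025114-46025413, and the window upstream of it, at chr17:46032328-46032627, held 0. For Pdk1, the window at chr2:71874654-71874953 held 0. The median GC content was 66% in the 11 windows and 52.7% in all windows. Matches on opposite strands can overlap, as in the letters CACGTG. Windows of 4 genes are printed 5′ to 3′ with the matches in capitals, because the fold changes of Egln3 and Bnip3 had opposite signs in J1 and F1 while those of Ankrd37 and P4ha2 were above 0 in both. A match is a description of the letters and does not show binding.
Egln3, chr12:54203825-54204124, minus strand: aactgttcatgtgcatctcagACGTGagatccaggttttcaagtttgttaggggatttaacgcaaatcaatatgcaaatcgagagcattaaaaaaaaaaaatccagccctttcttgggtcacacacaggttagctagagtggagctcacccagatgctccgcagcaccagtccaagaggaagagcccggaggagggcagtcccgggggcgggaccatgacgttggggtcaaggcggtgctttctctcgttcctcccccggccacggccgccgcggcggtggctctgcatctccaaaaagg
Bnip3, chr7:138909457-138909756, minus strand: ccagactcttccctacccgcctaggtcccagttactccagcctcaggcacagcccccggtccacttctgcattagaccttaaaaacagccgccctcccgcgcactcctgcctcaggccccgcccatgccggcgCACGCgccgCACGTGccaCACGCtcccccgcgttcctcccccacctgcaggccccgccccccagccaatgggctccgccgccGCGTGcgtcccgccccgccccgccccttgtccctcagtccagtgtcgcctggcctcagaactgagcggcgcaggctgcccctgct
Ankrd37, chr8:45999801-46000100, minus strand: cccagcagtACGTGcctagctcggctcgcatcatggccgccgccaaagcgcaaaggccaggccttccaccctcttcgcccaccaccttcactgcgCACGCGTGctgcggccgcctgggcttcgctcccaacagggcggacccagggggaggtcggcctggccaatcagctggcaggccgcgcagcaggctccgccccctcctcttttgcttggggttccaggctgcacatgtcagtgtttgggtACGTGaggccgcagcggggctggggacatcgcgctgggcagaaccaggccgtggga
P4ha2, chr11:54100674-54100973, plus strand: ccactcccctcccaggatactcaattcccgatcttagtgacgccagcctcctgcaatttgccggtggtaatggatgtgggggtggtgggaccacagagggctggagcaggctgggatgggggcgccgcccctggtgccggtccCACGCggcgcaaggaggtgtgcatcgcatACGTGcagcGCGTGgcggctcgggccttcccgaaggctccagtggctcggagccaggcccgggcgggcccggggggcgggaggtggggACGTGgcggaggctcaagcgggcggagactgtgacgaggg
Egln3 held 1 match, 229 bases before the start. Bnip3 held 5 matches between 117 and 35 bases before the start, of which 2 overlap in CACGTG. Ankrd37 and P4ha2 held 4 matches each.

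Before the results, 3 facts of the arrays bear on them. Rif1 was lower in both knockdowns, with deposited signals of 2614 and 3222 in J1 controls against 1260 and 1297 with Rif1 shRNA, and 4231 and 4247 in F1 controls against 1339 and 1407. J1 Rif1 shRNA replicate 2 stood apart for these genes: 21 of the 22 probe sets were higher there than in replicate 1, with a median difference of 0.54 on the log2 scale, against -0.02 over all probe sets tested. Of all probe sets tested, 2.41% differed by more than 0.54 in that direction. In the other groups the same median was 0.07 (J1 control), 0.04 (F1 control) and -0.002 (F1 Rif1 shRNA). The summed signal of 24 fibroblast marker genes was 16250 to 17233 in J1 controls, 15098 to 15113 in J1 Rif1 shRNA, 21562 to 21667 in F1 controls and 42208 to 44175 in F1 Rif1 shRNA arrays, and no defining marker was listed at 0. Feeder RNA and expression of these genes by the stem cells cannot be told apart in it. The sums use deposited signals, and trimmed means of the arrays were 192 to 196 on J1 and 299.8 to 307.8 on F1. After normalization, the median log2 difference of these 24 genes between F1 and J1 controls was 0.07, with 11 higher and 8 lower in F1. Of 13 stem cell markers, 1 fell in J1 (Tfcp2l1, log2 fold change -0.61) and 0 rose, and in F1 7 fell (by 0.22 to 0.62) and 1 rose (Tdgf1, 0.25). Of all 14714 genes tested, 319 fell and 274 rose in J1, and 1201 fell and 1563 rose in F1. In bulk RNA, fewer cells of a type and less RNA per cell cannot be told apart.

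The first comparison was Rif1 shRNA against control 48 h after transfection of J1 cells. Ndrg1, Ankrd37 and Adm rose, and none of the 10 genes fell. Quantile-normalized log2(signal + 18) was compared, an offset that shrinks the changes of dim genes. The threshold was an adjusted p (Benjamini-Hochberg, limma) under 0.05 over 31605 probe sets. By this rule 4 of the 22 probe sets passed upward and 0 downward, against 1.44% upward and 1.74% downward of all probe sets tested. Tested on simulated data with the unequal spreads of the 2 settings, the fit made more false calls in J1 than this threshold allows. Among the 4, Adm 1416077_at entered the tests through knockdown arrays alone, so a rise was favoured there. At an unadjusted p under 0.05, 12 of the 22 were higher and 0 lower, where 17.1% of all probe sets passed that p in either direction. The log2 fold change was above 0 at 21 of 22 probe sets, with a median of 0.41 against -0.001 over all probe sets. Deposited signals of the 2 groups did not overlap at 13 probe sets, all higher with Rif1 shRNA, where 20.6% of all probe sets were higher and 19% lower without overlap. Without J1 Rif1 shRNA replicate 2, 3 probe sets passed upward (1.90% of all), and without replicate 1, 12 passed (2.32% of all). Without J1 control replicate 1 or 2, 0 passed (0.483% and 0.459% of all), and a fit to the 4 J1 arrays alone gave 1 (background 0.557%). Actin probes near the 3' end over those near the 5' end, a sign of RNA quality, gave a ratio of 2.61 to 2.71 in J1 controls and 2.17 to 2.18 with Rif1 shRNA. Its part in these results was not tested.

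**Figure D1:**
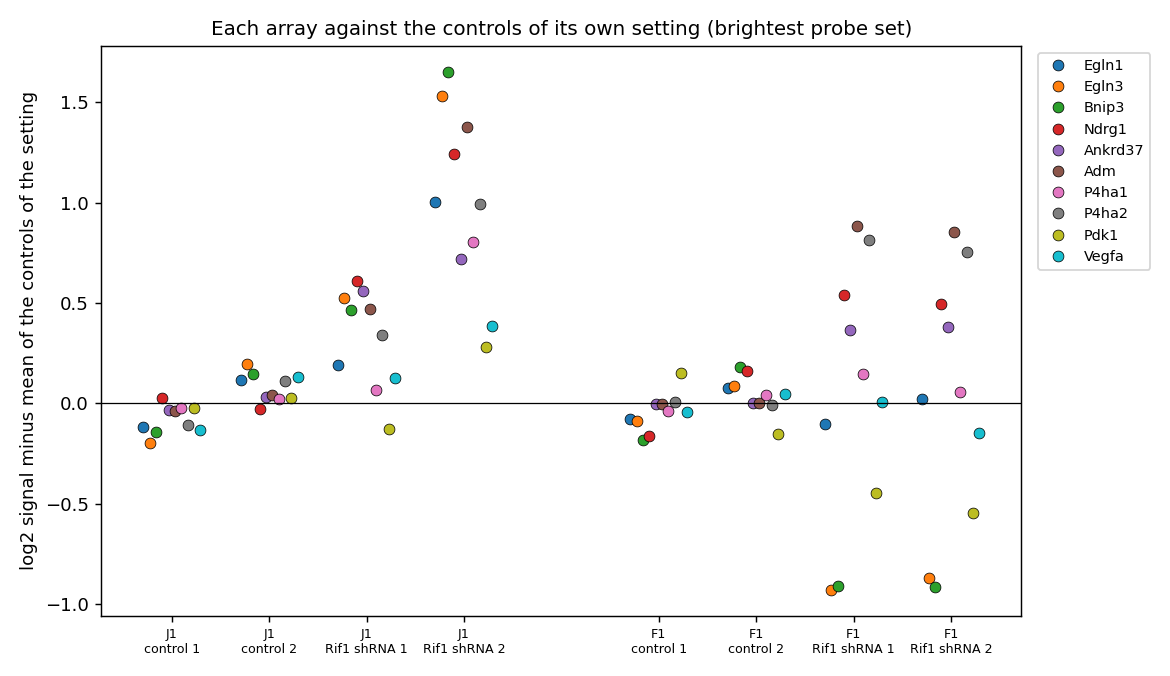
Log2 signal of the 10 genes on each of the 8 arrays, at the brightest probe set of each gene, minus the mean of the control arrays of the same setting; each point is 1 gene on 1 array. In J1 all 10 genes were higher on Rif1 shRNA replicate 2 than on replicate 1; in F1 both knockdown arrays show Egln3, Bnip3 and Pdk1 below and Adm, P4ha2, Ndrg1 and Ankrd37 above the controls.

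Ndrg1 encodes a cytoplasmic protein induced by many stresses. At its brightest probe set (1456174_x_at) the deposited signals were 180 and 169 in J1 controls against 264 and 406 after Rif1 shRNA. The groups did not overlap, with a log2 fold change of 0.93 (SE 0.18, limma adjusted p = 0.0196). It was 0.63 without Rif1 shRNA replicate 2 (adjusted p = 0.0459), and it passed with only the 4 J1 arrays (adjusted p = 0.0431). A second Ndrg1 probe set (1420760_s_at) had 132 and 123 against 186 and 254, and rose by 0.81 (SE 0.14, limma adjusted p = 0.0132), but did not pass with only the 4 J1 arrays (adjusted p = 0.0529). The other Ndrg1 probe sets, 1423413_at, 1450976_at and 1450977_s_at, had 0.39, 0.26 and 0.21 and did not pass, so the 5 probe sets disagree. Probe sets ending in _x_at or _s_at may also bind other transcripts.

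Ankrd37 encodes a small ankyrin repeat protein. Its signals at 1436538_at were 48.9 and 47.3 in controls against 73.0 and 89.8 after Rif1 shRNA, with no overlap. Ankrd37 rose by 0.64 on the log2 scale (SE 0.11, limma adjusted p = 0.0102), and by 0.57 without Rif1 shRNA replicate 2 (adjusted p = 0.0292). With only the 4 J1 arrays it did not pass (adjusted p = 0.0713).

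Adm encodes adrenomedullin, a peptide that widens blood vessels. At 1416077_at the signals were 29.2 and 29.6 in controls against 45.4 and 98.4 after Rif1 shRNA, without overlap. Adm rose by 0.92 on the log2 scale (SE 0.22, limma adjusted p = 0.0488). Of the 8 arrays, only Rif1 shRNA replicate 1 could be left out with Adm still past the threshold, and without replicate 2 the value was 0.47 (adjusted p = 0.0664). Adm also did not pass with values as deposited (adjusted p = 0.0642). Adm was dim: both of its probe sets and Ndrg1 1423413_at entered the tests through knockdown arrays alone, so a difference at these 3 was favoured by the filter. In the 4 J1 arrays alone, 1416077_at was not tested. The second Adm probe set, 1447839_x_at, had 0.85 and did not pass (adjusted p = 0.0824). With no filter the Adm probe set had the same change (adjusted p = 0.0477).

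The largest J1 fold changes among the 10 genes, at Egln3 and Bnip3, did not pass. Egln3, whose product is one of the HIF prolyl hydroxylases, had signals of 73.7 and 89.3 in controls against 114 and 226 after Rif1 shRNA at 1418649_at. The groups did not overlap, and the difference came to 1.03 on the log2 scale (SE 0.25, limma adjusted p = 0.0543). The second Egln3 probe set had 1.13 (adjusted p = 0.0595). Bnip3 (1422470_at), which marks mitochondria for removal, had 343 and 426 in controls against 520 and 1223 after Rif1 shRNA, a log2 fold change of 1.06 (SE 0.28, limma adjusted p = 0.0708). In deposited signals of these 2 genes, the knockdown arrays differed from each other by more than the lower one differed from the controls. The same held for Adm 1416077_at and Ndrg1 1456174_x_at, which passed. Dropping Rif1 shRNA replicate 2 gave 0.54 for Egln3 (adjusted p = 0.111) and 0.47 for Bnip3 (adjusted p = 0.136), and dropping replicate 1 gave 1.57 (adjusted p = 0.00212) and 1.65 (adjusted p = 0.00107).

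Egln1, the main HIF prolyl hydroxylase, had 205 and 238 in controls against 248 and 434 after Rif1 shRNA at its brightest probe set. Its probe sets 1423785_at and 1451110_at had log2 fold changes of 0.60 and 0.34 (limma adjusted p = 0.156 and 0.377). P4ha2 (1417149_at), a catalytic subunit of collagen prolyl hydroxylase, had 205 and 237 against 277 and 431 and a log2 fold change of 0.67 (SE 0.17, limma adjusted p = 0.0591). P4ha1 (1452094_at), the sister subunit, had 289 and 300.45 against 305 and 508, so that its difference lay almost wholly in replicate 2 (log2 fold change 0.44, and 0.07 without that array). Its dim probe set 1426519_at had 0.13. Pdk1, a kinase that shuts pyruvate out of the mitochondrial cycle, had log2 fold changes of 0.04 to 0.15 at its 4 probe sets. Vegfa, the growth factor of blood vessels, had 0.25 at 1420909_at and -0.07 at 1451959_a_at. None of these passed.

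**Figure D2:**
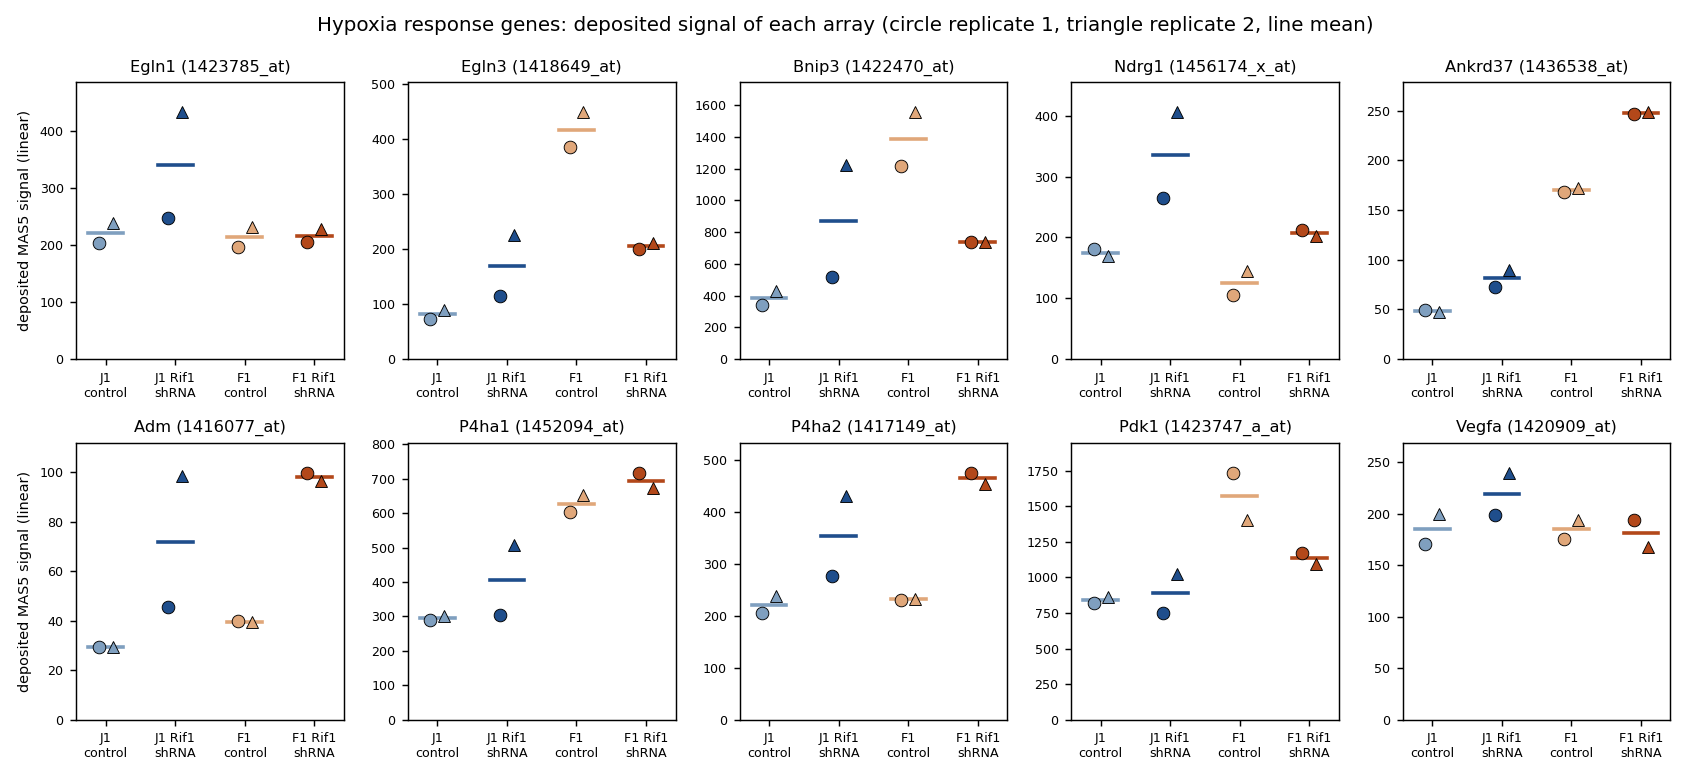
Deposited signal (linear scale, from 0) of the brightest probe set of each of the 10 genes on all 8 arrays; circles are replicate 1, triangles replicate 2 and lines group means of 2 arrays. In these signals, not scaled between settings, Egln3 and Bnip3 are highest in F1 controls and J1 Rif1 shRNA replicate 2, with F1 knockdown arrays at 201 and 212 for Egln3. After normalization, Bnip3 had a log2 value of 10.68 on J1 Rif1 shRNA replicate 2, above the F1 controls (9.88 and 10.24).

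The second comparison was stable Rif1 shRNA against control in F1 cells. Here the genes split: Adm, P4ha2, Ndrg1 and Ankrd37 rose, and Egln3 and Pdk1 fell. Of the 22 probe sets 5 passed upward and 5 downward, against 8.26% and 6.78% of all probe sets tested. Among the upward ones, Adm 1416077_at and Ndrg1 1423413_at entered the tests through knockdown arrays alone, so a rise was favoured there. The median log2 fold change of the 22 probe sets was 0.01, against -0.03 over all probe sets. Deposited signals did not overlap at 16 probe sets, 8 higher and 8 lower, where 32.6% of all probe sets were higher and 30.6% lower without overlap. These counts without overlap are near the background. With only the 4 F1 arrays in the fit, 6 passed in each direction (background 15% and 14.7%), those that passed before and also Bnip3 and 1 more Ndrg1 probe set. In that fit the adjusted p was 0.000366 and 0.00134 for Egln3, 0.000447, 0.00139 and 0.01 for Pdk1, 0.000235 for P4ha2, 0.000406 for Adm, 0.00475 for Ankrd37 and 0.00810 and 0.0171 for Ndrg1. Leaving out any F1 array kept 0 or 1 upward and 1 or 2 downward calls (3.49% to 4.86% and 2.42% to 3.51% of all). Fibroblast marker RNA in these arrays differed as given above, and its part in the F1 results was not tested.

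Egln3 signals in F1 were 385 and 450 in controls and 201 and 212 in knockdown arrays at 1418649_at. Both knockdown arrays lay below both controls, and Egln3 was 1.87-fold lower (log2 fold change -0.90, SE 0.25, limma adjusted p = 0.0346). The second Egln3 probe set had 328 and 426 against 159 and 190 (log2 fold change -0.95, limma adjusted p = 0.0457). Neither passed without any 1 of the 4 F1 arrays (adjusted p = 0.102 to 0.258). Egln1, in contrast to its sister gene, had 197 and 231 against 205 and 228, with overlapping groups and log2 fold changes of -0.04 and -0.07 (limma adjusted p = 0.938 and 0.862).

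Bnip3 signals were 1214 and 1557 in F1 controls and 739 and 735 in knockdown arrays. The groups did not overlap, but the value of -0.91 on the log2 scale just missed the threshold (SE 0.28, limma adjusted p = 0.0512). Bnip3 passed with only the 4 F1 arrays (adjusted p = 0.00142) and without either J1 Rif1 shRNA array (adjusted p = 0.000862 and 9e-04). It did not pass without any 1 F1 array (adjusted p = 0.0911 to 0.293).

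Pdk1 fell at 3 of its 4 probe sets in F1. At 1435836_at the signals were 468 and 474 in controls and 298 and 299.55 in knockdown arrays. The replicates differed little and the groups lay far apart (log2 fold change -0.63, SE 0.10, limma adjusted p = 0.00182). This was the only probe set of the 10 genes whose F1 call held in all 21 alternatives. At 1423748_at the signals were 1599.8 and 1674 against 1270.1 and 1259 (log2 fold change -0.41, limma adjusted p = 0.0119). At the brightest, 1423747_a_at, they were 1735 and 1403 against 1172 and 1096 (log2 fold change -0.50, limma adjusted p = 0.0211). The remaining, dim probe set 1434974_at had -0.27 (adjusted p = 0.178).

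Among the genes that rose, P4ha2 had signals of 231 and 233 in F1 controls and 475 and 453 in knockdown arrays. It was 1.72-fold higher (log2 fold change 0.78, SE 0.17, limma adjusted p = 0.00890), and its adjusted p was 0.0512 to 0.0767 with any 1 F1 array left out. Its sister P4ha1 had 602 and 651 against 717 and 672, with log2 fold changes of 0.10 and 0.06 (limma adjusted p = 0.782 and 0.890). Adm had 39.7 and 39.5 against 99.7 and 96.4 at 1416077_at and rose 1.83-fold (log2 fold change 0.87, SE 0.22, limma adjusted p = 0.0212), at a probe set that entered the tests through knockdown arrays alone. The other Adm probe set had 0.29 (adjusted p = 0.502).

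Ankrd37 had 168 and 172 in F1 controls and 247 and 249 in knockdown arrays (log2 fold change 0.38, SE 0.11, limma adjusted p = 0.0365). Ndrg1 rose at 2 of 5 probe sets. At 1423413_at it had 40.8 and 40.4 against 65.05 and 103 (log2 fold change 0.67, limma adjusted p = 0.0174), but no control array lay above the filter there, so a rise was favoured. It also rose at 1420760_s_at, with 112 and 142 against 205 and 208 (log2 fold change 0.49, limma adjusted p = 0.0395). The brightest Ndrg1 probe set had 105 and 145 against 212 and 203, a log2 fold change of 0.52 that did not pass (adjusted p = 0.0775), and 1450976_at and 1450977_s_at had 0.14 and 0.07. Vegfa had -0.07 and -0.24 at its 2 probe sets (limma adjusted p = 0.788 and 0.150).

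**Figure D3:**
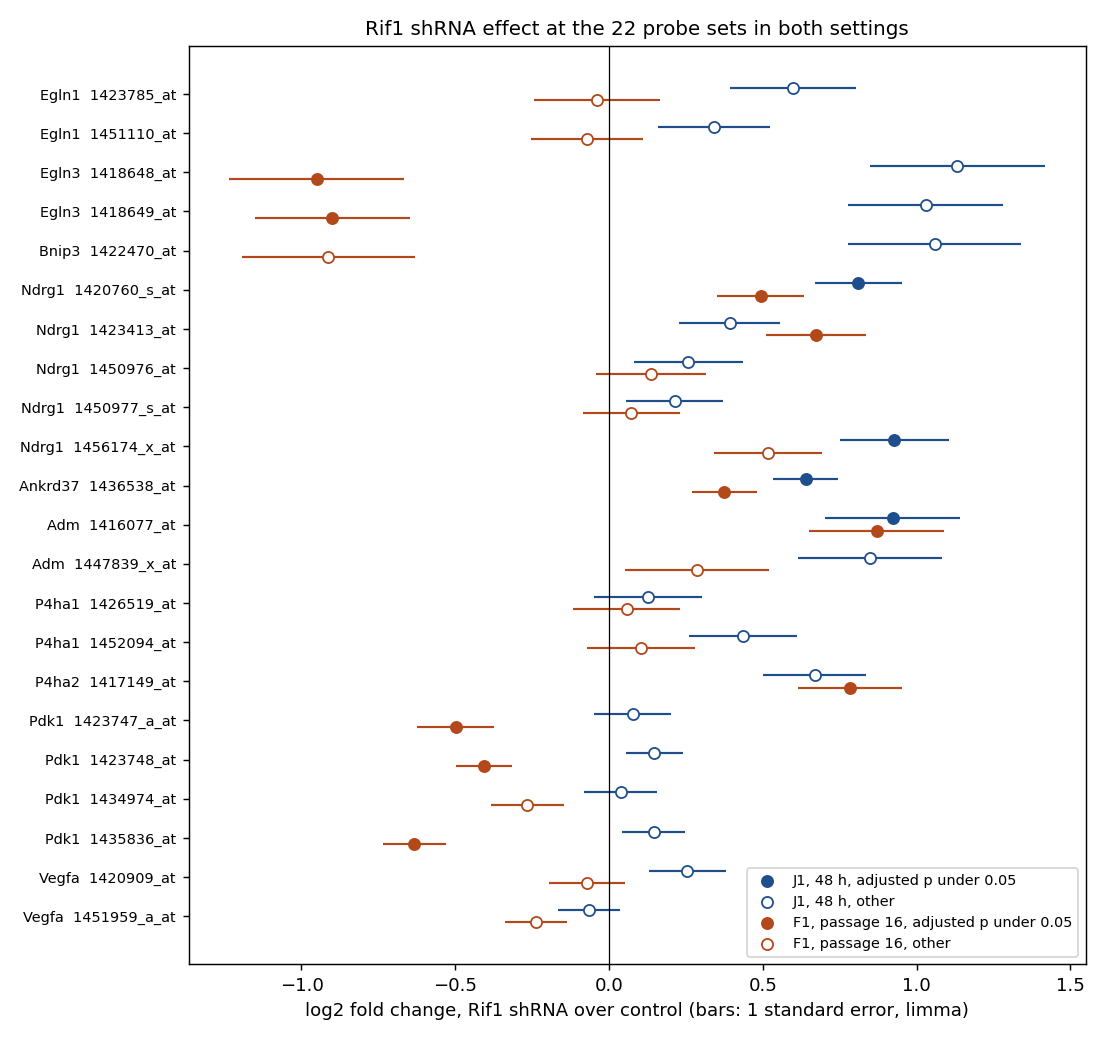
Log2 fold change of Rif1 shRNA over control at the 22 probe sets, in J1 (blue) and F1 (orange), with bars of 1 standard error from limma; filled points passed at an adjusted p under 0.05. Egln3 and Bnip3 lie near 1 in J1 and near -0.9 in F1, while Adm, P4ha2, Ndrg1 and Ankrd37 lie above 0 in both.

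The third comparison tested whether the knockdown effect differed between F1 and J1. It differed for Egln3 and Bnip3, and for Pdk1 at 2 probe sets but not at its brightest. Where it differed, the F1 effect was lower. Of the 22 probe sets 5 passed, 0 with a higher and 5 with a lower effect in F1, against 4.98% and 3.35% of all probe sets tested. The difference was -1.93 for Egln3 at its brightest probe set (SE 0.36, limma adjusted p = 0.00736) and -2.08 at the other (SE 0.40, adjusted p = 0.00920). For Bnip3 it was -1.97 (SE 0.40, limma adjusted p = 0.0113). For Pdk1 it was -0.78 (SE 0.15, adjusted p = 0.00796) at 1435836_at and -0.55 (SE 0.13, adjusted p = 0.0239) at 1423748_at. The brightest Pdk1 probe set, 1423747_a_at, had -0.575 and did not pass (limma adjusted p = 0.0756), nor did 1434974_at, with -0.30 (adjusted p = 0.324). The count was 3 without J1 control replicate 1 (6.79% of all in either direction) or F1 control replicate 2 (4.36%), and 11 without J1 Rif1 shRNA replicate 1 (12.7%). Without J1 Rif1 shRNA replicate 2 the differences were smaller but passed: -1.47 and -1.59 for Egln3 (adjusted p = 0.00318 and 0.00785), -1.38 for Bnip3 (adjusted p = 0.00304) and -0.74 and -0.41 for Pdk1 (adjusted p = 0.0186 and 0.0326). For Bnip3 the difference did not pass without J1 control replicate 1 (adjusted p = 0.0565) or F1 control replicate 2 (adjusted p = 0.0571). For Pdk1 at 1423748_at it did not pass without J1 control replicate 1 or any 1 F1 array (adjusted p = 0.0576 to 0.0994), and it passed in 13 of 20 alternatives. For Adm and P4ha2 the difference was -0.05 (SE 0.31) and 0.11 (SE 0.24), for Ankrd37 -0.26 (SE 0.15) and for the brightest Ndrg1 probe set -0.41 (SE 0.25). These did not pass, which does not show that the 2 effects are alike. Setting here stands for cell line, strain, delivery and time together, which cannot be told apart.

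Control cells of the lines also differed in these genes. Between F1 and J1 controls 14 of 22 probe sets passed, where 33.5% of all probe sets were higher and 34% lower in F1, so such a share is near the background. The actin ratio, 2.61 to 2.71 in J1 controls, was 1.35 to 1.41 in F1 controls, and its part in these differences was not tested. Egln3 was higher in F1 controls by 1.72 on the log2 scale (SE 0.25, limma adjusted p = 0.000110), Ankrd37 by 1.35 (SE 0.11, adjusted p = 9.74e-07) and Bnip3 by 1.03 (SE 0.28, adjusted p = 0.00690). Across the 4 groups the level of Egln3 was lowest in J1 controls, then in F1 knockdown and J1 Rif1 shRNA arrays, which overlapped, and highest in F1 controls. Bnip3 had the J1 controls and F1 knockdown arrays overlapping at the low end and the F1 controls and J1 Rif1 shRNA arrays overlapping at the high end. Ankrd37 stood at 4 levels without overlap, from J1 controls through J1 Rif1 shRNA and F1 controls to F1 knockdown. Adm was higher in both knockdown groups, which overlapped, than in both control groups. Its control levels differed by 0.39 (adjusted p = 0.140), and by -0.14 with trimmed-mean scaling, so the controls have no settled order. At their brightest probe sets Egln1 and Vegfa were lower in both F1 groups than in both J1 groups after normalization, but in values as deposited the control difference was -0.05 for Egln1 and 1e-04 for Vegfa. Scaling moved the median of all probe sets between the 2 controls from -0.02 to 0.30 as deposited and -0.24 with trimmed-mean scaling. Levels of different genes cannot be compared on these arrays.

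The rest of the pathway was counted at the brightest tested probe set of each gene. Of 20 HIF subunit and regulator genes 0 rose and 2 fell in J1, with a median log2 fold change of -0.05, beside 274 risen and 319 fallen and a median of 0.01 over all 14714 genes tested. The 2 were Ep300, a coactivator of HIF (-0.40, limma adjusted p = 0.0124), and Hif1an, an asparagine hydroxylase that blocks HIF (-0.36, adjusted p = 0.0405). The count of fallen genes was 0 without J1 control replicate 2, and 1 without J1 control replicate 1, J1 Rif1 shRNA replicate 2 or any 1 F1 array, or with the 4 J1 arrays alone. The subunit genes Hif1a, Epas1 and Arnt had -0.22, -0.36 and -0.14, and the oxygen sensor Egln2 and the degradation factor Vhl -0.06 and -0.08, none past the threshold. In F1, 3 of 20 rose and 1 fell (median -0.09), beside 1563 risen and 1201 fallen of all genes. Cited2, which competes with HIF for its coactivators, rose by 0.73 on the log2 scale (adjusted p = 0.000140), and Fh1 and Eloc rose by 0.28 and 0.19 (adjusted p = 0.00345 and 0.0389). Arnt fell by 0.43 (adjusted p = 0.0104). Without F1 Rif1 shRNA replicate 2 the counts were 1 risen and 0 fallen. The mean F1 signal of Arnt was 350.04 ± 26.8 after Rif1 shRNA against 467 ± 37.4 without (SD, n = 2 each).

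Beside the counts of the next lists, 274 of all 14714 genes tested rose and 319 fell in J1. In F1, 1563 of all genes rose and 1201 fell. Of 34 other HIF target genes tested, 5 rose and 0 fell in J1, with a median of 0.24. They were Ero1a, an oxidase of protein folding (0.66, limma adjusted p = 0.0218), Stc2 (0.44), Narf (0.40), Higd1a (0.36) and the transferrin receptor gene Tfrc (0.32). Without J1 Rif1 shRNA replicate 2 the count was 3, and without J1 control replicate 1 or 2 it was 0 or 1. In F1, 7 rose and 5 fell (median 0.09), and with 1 array left out 4 to 11 rose and 1 to 5 fell, the lowest counts without F1 Rif1 shRNA replicate 1 and 11 risen without either J1 Rif1 shRNA array. The risen genes included Igfbp3 (1.52, adjusted p = 7.22e-06), the collagen cross-linking genes Lox (1.45, adjusted p = 1.39e-05) and Plod2 (0.88, adjusted p = 0.000387), and Errfi1 (1.08, adjusted p = 4.52e-05). Those that fell were the glycogen synthase gene Gys1 (-0.54), Stc2 (-0.46), Rcor2 (-0.42), Zfp395 (-0.40) and Kdm4c (-0.29). Among 15 glycolytic HIF targets 4 rose and 0 fell in J1 (Aldoc, Pfkp, Tpi1 and Pgk1, by 0.36 to 0.65) and 1 rose and 0 fell in F1 (Slc2a3, 0.23). The J1 count was 0 without either J1 control, 1 without Rif1 shRNA replicate 2 and 11 without replicate 1. The F1 count of fallen genes was 4 with the 4 F1 arrays alone and 3 without either J1 Rif1 shRNA array. On the fibroblast list 0 of 24 rose and 5 fell in J1, and 21 rose and 0 fell in F1, with a median of 1.22. The J1 falls were uneven, from -1.88 in Acta2 and -1.01 in Tagln to -0.41 in S100a6, while Lgals1 had 0.12.

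**Figure D4:**
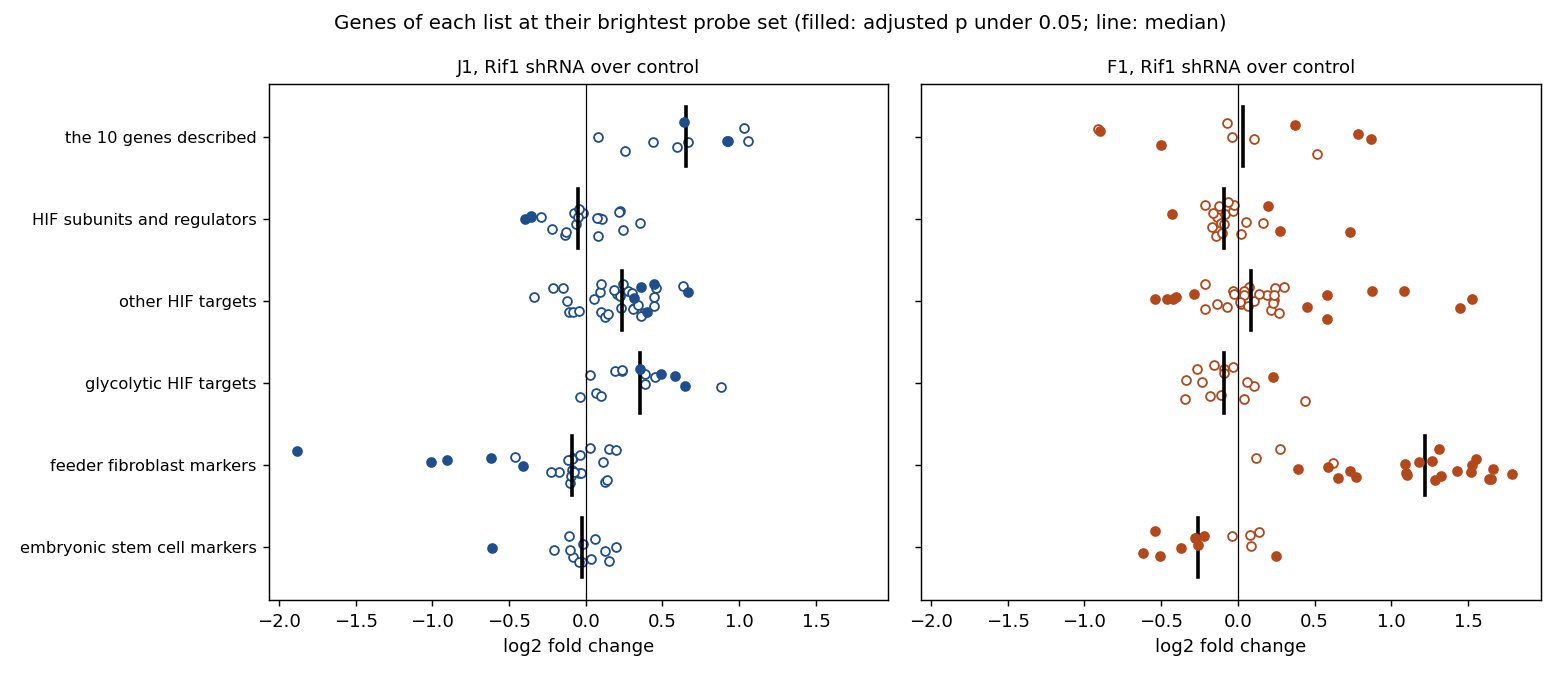
Log2 fold change of each gene at its brightest tested probe set, by list, in J1 (left) and F1 (right); filled points passed at an adjusted p under 0.05, vertical position within a list carries no meaning, and black lines are list medians. The 10 genes have a median of 0.65 in J1 and 0.03 in F1; fibroblast markers have a median of -0.09 in J1 and 1.22 in F1.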

How the data were processed

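Per the labels' protocols, Trizol-extracted total RNA was biotin-labelled for Affymetrix arrays. The deposited values are intensity signals on a linear scale, 1 per probe set and array, made with MAS5 per the submitters' processing notes; the sources used here name neither its version nor its target scaling. From 45101 probe sets, 64 controls were left out. Trimmed means were 192 to 196 on J1 and 299.8 to 307.8 on F1 arrays, so log2(signal + 18) was quantile normalized across all arrays, 18 being the 10th percentile of all values. A probe set entered the tests if 2 or more arrays put it over their own 40th percentile, as 31605 did.

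One limma model (version 3.58.1, R 4.3.3) held the 4 group means over 8 arrays (eBayes with an intensity trend, 4 residual degrees of freedom), and tests were two-sided. The fit gives both settings 1 spread, although the median residual SD was 0.101 in J1 and 0.0700 in F1, so values from only the 4 arrays of a setting are given too. Tested on simulated data with these unequal spreads, the fit recovered the changed genes but made more false calls in J1 than its threshold allows, and not in F1. The 2 arrays of a group limit the precision of every value, and no pair of replicates held identical values throughout.

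Names came from the platform annotation, where 34945 probe sets had 1 symbol, 932 several and 9160 none here. The 10 genes and the lists (HIF regulators, other HIF targets, glycolytic targets, fibroblast and stem cell markers) were chosen with earlier results of these data known. The text covers every probe set of the 10 genes, and from each list genes among the 4 with the smallest p in J1 and in F1, 6 HIF regulators for their level, and Narf, Gys1, Rcor2, Zfp395 and Kdm4c, added after values were seen to spell out a count. Alternatives were other offsets, scalings, filters, thresholds, spreads, probe set rules, blocks and each array left out. Figures were drawn with matplotlib 3.10.9. The labels do not tie equal replicate numbers together, and deviations of same-numbered arrays correlated at -0.34 in J1 and 0.19 in F1.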

Additional observations from a re-analysis of the deposited data

Results flagged for a closer look

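The effect of Rif1 shRNA differed between F1 and J1 cells in a direct test at 5 of 22 probe sets, in 3 genes. Of all probe sets tested, 4.98% passed with a higher and 3.35% with a lower effect in F1. The F1 effect minus the J1 effect was -2.08 and -1.93 on the log2 scale at the Egln3 probe sets 1418648_at and 1418649_at (limma adjusted p = 0.00920 and 0.00736), -1.97 at Bnip3 (adjusted p = 0.0113), and -0.55 and -0.78 at the Pdk1 probe sets 1423748_at and 1435836_at (adjusted p = 0.0239 and 0.00796). The brightest Pdk1 probe set, 1423747_a_at, did not pass (limma adjusted p = 0.0756), nor did 1434974_at (adjusted p = 0.324). The calls at Bnip3 and Pdk1 1423748_at were lost without certain single arrays, as given above. At Egln3 and Bnip3 both J1 knockdown arrays lay above and both F1 knockdown arrays below their controls. Groups of 2 arrays are too small for a check of single outlying arrays.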

How the results depend on the processing

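Leaving out arrays moved the counts of calls most. With each of the 8 arrays left out in turn, where the lone array of a group is assumed to vary like the other groups, upward calls in J1 ran from 0 to 12 (4 with all arrays), upward calls in F1 from 0 to 6 and downward calls in F1 from 1 to 6 (5 each with all arrays), and differences between settings from 3 to 11 (5 with all arrays). Upward J1 calls were 2 with no intensity trend, 1 with only the 4 J1 arrays, 0 at a threshold of 0.01, 9 at 0.1 and 8 with a crossed replicate block in J1, an alternative added after the data were seen. Upward F1 calls were 3 with the filter at the 60th percentile (10.7% of all) and 3 with a replicate block (6.5%). At a threshold of 0.01 there was 1 (4.91%). Downward F1 calls were 2 with no trend (5.16%) and 1 at a threshold of 0.01 (3.26%). Differences were 3 at 0.01 (3.58% in either direction). Counted as genes, 3 rose in J1, beside 274 of all 14714 genes. The count was 5 when only brightest probe sets were tested (407 of all genes) and 1 with the mean of a gene's probe sets (311 of all). The replicate block gave 6 upward J1 calls (0.737% of all probe sets). Egln3 and Bnip3 passed the threshold there (limma adjusted p = 0.0284 and 0.0418), and Ankrd37 and Adm did not (0.0542 and 0.0612). The cause of these shifts was not tested. No value past the threshold changed sign under any alternative run, and control levels between lines gave 10 to 17 calls (14 with the settings of the report). With the settings of the report, 33.5% of all probe sets were higher and 34% lower in F1 than in J1 controls. Dim probe sets, those of Adm among them, lie near the filter, and the offset shrinks their changes.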

Other observations

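Genes outside the 10 whose pattern over the 8 arrays was closest to theirs were sought by distance, as a description, with each array taken relative to the controls of its setting. Nearest to the median profile of the 10 genes, whose own length was 1.09, were Ero1a (distance 0.16), Igfbp2 (0.25), Prok2 (0.25), Spesp1 (0.27) and Pfkp (0.31). This median profile was 0.9998 on J1 Rif1 shRNA replicate 2, 0.4039 on replicate 1, and 0.0764 and 0.041 on the F1 knockdown arrays. Nearness to it therefore mostly describes a rise on J1 Rif1 shRNA replicate 2, the array that stood apart for these genes. In F1, where some of the 10 genes rose and others fell, the median does not describe the single genes. Ero1a and Pfkp are on the lists of HIF targets used above. Nearest to Ndrg1, whose profile had a length of 1.59, were Prelid2 (0.37), Ddah1 (0.54), Cyp2s1 (0.54), Cd47 (0.55) and Pfn2 (0.57). The arrays in a setting share their controls, so these distances are not independent of the fold changes above.

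Beyond the 10 genes, opposite effects in J1 and F1 were measured for the secreted glycoprotein gene Stc2 (0.44 in J1, -0.46 in F1, difference -0.91, limma adjusted p = 0.00132). The glycolytic genes Aldoc, Tpi1 and Pgk1 had differences of -0.99, -0.83 and -0.47 (adjusted p = 0.00489, 0.0104 and 0.0112). Lox, Igfbp3, Errfi1 and Plod2 had differences the other way, from 0.78 to 1.35 (adjusted p from 0.000636 to 0.0122).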
